A study of Mus musculus with 12 samples.

Results

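The 10 genes described here make, conjugate or restrain the production of bile acids in the liver. They are Cyp7a1, Cyp8b1, Cyp27a1, Cyp7b1, Cyp39a1, Acox2, Amacr, Slc27a5, Baat and Nr0b2. They were chosen by name as the set of bile acid synthesis and conjugation genes, with earlier results of these data known. Every probe set that the platform annotation gives to 1 of these genes alone was taken, which made 15 of the 45101 probe sets of the array and 10 of the 18193 genes that the array names singly. All 10 genes passed the filter on low signal. Of their probe sets 13 passed it, and the other 2, second probe sets of Cyp7b1 and Cyp27a1, stood at the floor of 2.22 in all 12 livers.

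Liver RNA of 12 male C57Bl/6J mice, 9 weeks old, was hybridised to 1 Affymetrix mouse array per mouse, in 4 groups of 3. CKO CDDO-Im and CKO vehicle mice were Albumin-Cre:Keap1(flox/-), with 1 floxed and 1 null allele of Keap1. WT CDDO-Im and WT vehicle mice, the genetic controls, were Alb-Cre:Keap1(flox/+), with 1 floxed and 1 intact allele. Keap1 is the adaptor protein that marks the transcription factor Nrf2 for degradation, and CDDO-Im is a synthetic triterpenoid that activates Nrf2. CDDO-Im was given once by gavage at 30 umol per kg body weight. Vehicle mice received the carrier alone, 10% DMSO and 10% Cremophor-EL in PBS, and all livers were taken 6 h after dosing. All 4 groups thus shared the Cre transgene, which the albumin promoter drives in hepatocytes, and a floxed allele that it can delete. WT hepatocytes may therefore keep only the intact allele, and the null allele of CKO mice is present outside hepatocytes as well. The design sets genetic beside pharmacologic activation of Nrf2.

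Bile acids are made from cholesterol in hepatocytes, where they are the main route by which cholesterol leaves the body, and they emulsify fat in the gut. The classical pathway starts with Cyp7a1 and passes through Cyp8b1, and the alternative pathway starts with Cyp27a1 and passes through Cyp7b1. Peroxisomal enzymes then shorten the side chain, and the acid is joined to taurine or glycine before export. Bile acids limit their own synthesis through the receptor FXR and the small heterodimer partner, the product of Nr0b2, which represses Cyp7a1 and Cyp8b1.

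Promoters of 4 of the 10 genes, in 5 windows, were matched by symbol in a RefSeq table of build GRCm38.p6. Those of Cyp7a1, Cyp7b1, Cyp39a1, Amacr, Baat and Slc27a5 were not found there and were not searched. The 250 bases before the start were searched on both strands for TGACNNNGC, the core letters of the antioxidant response element to which Nrf2 binds. This motif was found in 10.2% of all 32851 windows of the same length. Acox2 and Cyp8b1 held it once each, in both cases on the strand opposite to the gene, and Cyp27a1 and Nr0b2 did not hold it. The Acox2 match, 13 to 5 bases before that start, also lay in the window of a second annotated start of the gene. The Cyp8b1 match lay 151 to 143 bases before the start. A window with the match is shown for each of these 2 genes. Acox2 was called only in CKO vehicle against WT vehicle livers, where it rose, and Cyp8b1 was not called in any comparison. Capitals mark the match as it reads on the gene's strand. Acox2 is on the minus strand at chr14:8259020-8259269 and Cyp8b1 on the minus strand at chr9:121916306-121916555.
Acox2: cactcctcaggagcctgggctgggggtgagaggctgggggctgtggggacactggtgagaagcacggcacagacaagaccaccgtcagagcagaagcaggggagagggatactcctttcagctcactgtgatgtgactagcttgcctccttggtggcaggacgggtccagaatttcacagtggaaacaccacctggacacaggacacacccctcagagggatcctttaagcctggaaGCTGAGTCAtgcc
Cyp8b1: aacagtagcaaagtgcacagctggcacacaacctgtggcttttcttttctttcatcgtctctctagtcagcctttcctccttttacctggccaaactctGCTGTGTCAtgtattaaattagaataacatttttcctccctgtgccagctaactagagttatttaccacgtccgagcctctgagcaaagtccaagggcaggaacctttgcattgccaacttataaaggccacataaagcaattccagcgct
A match of letters is a description of the window and shows no binding.

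The genotypes and the treatment were visible in Keap1 and in Nqo1, a quinone reductase that Nrf2 induces. At one Keap1 probe set the log2 signal lay between 2.74 and 3.31 in the 6 CKO livers, against 7.92 to 8.89 in the 6 WT livers. At the other, the brighter over the 12 livers, the groups lay closer. It ran from 6.15 to 6.51 in CKO livers and from 6.58 to 8.08 in WT livers. The place of either probe set relative to the deleted part was not given in the sources used here. Nqo1 was 29.1-fold higher in CKO vehicle than in WT vehicle livers (adjusted p = 4.55e-05) and 10.9-fold higher in WT CDDO-Im than in WT vehicle livers (adjusted p = 0.000934), from limma's moderated test with Benjamini-Hochberg adjustment, as for all adjusted p-values here. The tissue carried its defining markers: the summed linear signal of 10 hepatocyte markers lay between 413185 and 430533 in CKO CDDO-Im livers, 414877 and 442509 in CKO vehicle livers, 440165 and 444403 in WT CDDO-Im livers and 410817 and 432728 in WT vehicle livers. Some livers stood apart. CKO vehicle replicate 3 had a log2 signal of 15.90 for Saa2, an acute phase gene, against 10.63 and 11.66 in the other CKO vehicle livers. CKO vehicle replicate 4 was lowest in male-biased liver genes, and WT vehicle replicate 1 was lowest in Cyp7a1.

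Between the genotypes under vehicle, 3 of the 10 genes were called. Cyp39a1 and Acox2 rose in CKO vehicle against WT vehicle livers, Amacr fell, and 7 genes did not pass the test. Over all 8338 genes tested in this comparison 6.51% were called at an adjusted p under 0.05. The median log2 difference of the 10 genes was 0.07, beside -0.01 over all genes tested. Leaving out CKO vehicle replicate 3 gave 3 calls, as did leaving out WT vehicle replicate 1, and leaving out CKO vehicle replicate 4 gave 2. The samples are whole liver, in which fewer cells of a type and less RNA per cell cannot be told apart.

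**Figure D1:**
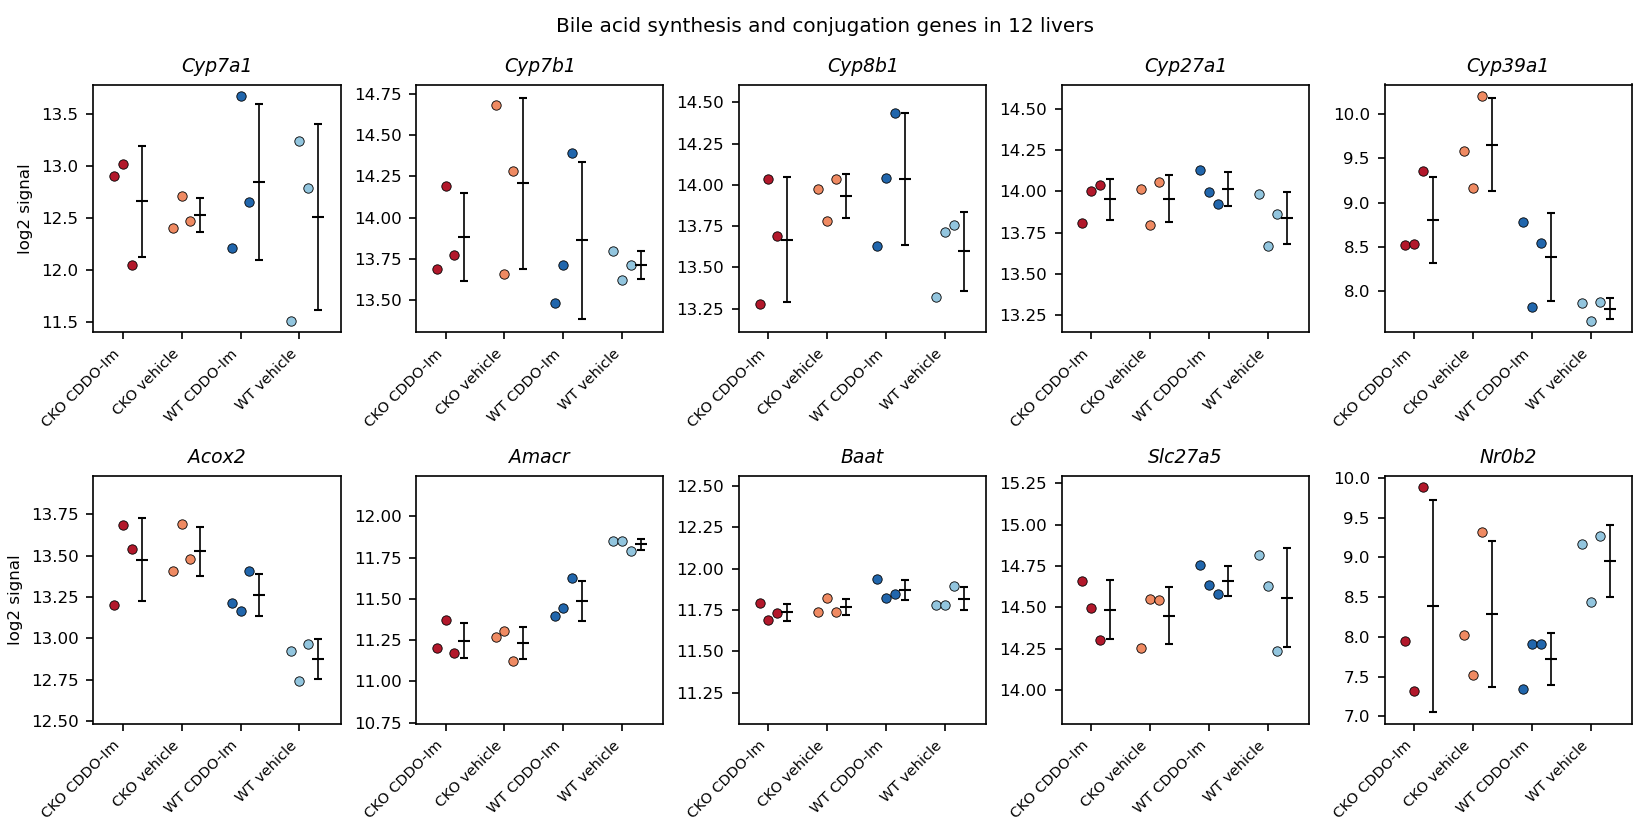
Log2 signal (vertical axis) of the 10 genes in each of 12 livers, by group (horizontal axis), with the group mean and SD (n = 3) beside the points. Each panel has its own vertical scale, of at least 1.5 log2 units. The 3 CKO vehicle livers lie above the 3 WT vehicle livers for Cyp39a1 and Acox2 and below them for Amacr, while Cyp7a1 and Nr0b2 spread over more than 1 log2 unit within some groups.

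The classical pathway showed no called change in any comparison. Cyp7a1, the cholesterol hydroxylase that sets the rate of the classical pathway, had log2 signals of 12.91, 13.03 and 12.05 in CKO CDDO-Im livers, 12.41, 12.71 and 12.48 in CKO vehicle livers, 12.21, 13.68 and 12.66 in WT CDDO-Im livers and 11.51, 13.24 and 12.79 in WT vehicle livers. The 4 groups overlapped, and the spread within WT groups was wider than any difference between group means. Group SDs were 0.54 in CKO CDDO-Im, 0.16 in CKO vehicle, 0.75 in WT CDDO-Im and 0.90 in WT vehicle livers. The log2 difference of CKO vehicle minus WT vehicle was 0.02, with a 95% interval from -1.02 to 1.06. That interval reaches past 1 log2 unit on either side. For WT CDDO-Im minus WT vehicle the difference was 0.34, with an interval from -0.70 to 1.38. Leaving out WT vehicle replicate 1, the lowest liver of all 12, moved these differences to -0.48 and -0.17, neither of them called. The second Cyp7a1 probe set followed the first over the 12 livers (Pearson r = 0.95) and was likewise not called.

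Cyp8b1, the sterol hydroxylase that decides the share of cholic acid, had log2 signals of 13.28, 14.03 and 13.69 in CKO CDDO-Im livers, 13.97, 13.78 and 14.04 in CKO vehicle livers, 13.63, 14.04 and 14.43 in WT CDDO-Im livers and 13.32, 13.71 and 13.76 in WT vehicle livers. Every CKO vehicle liver lay above every WT vehicle liver, by a narrow margin. The log2 difference was 0.33 ± 0.23 (SE) with an adjusted p of 0.429, and 0.20 without WT vehicle replicate 1 (adjusted p = 0.723). WT CDDO-Im livers averaged 14.04 ± 0.40 and WT vehicle livers 13.60 ± 0.24 (SD, n = 3 each), which overlapped, with a log2 difference of 0.44 (adjusted p = 0.323).

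Cyp27a1 and Cyp7b1 of the alternative pathway were not called in any comparison. Cyp39a1 was called only in CKO vehicle against WT vehicle livers, where 6.51% of all genes were called. Cyp39a1, an oxysterol hydroxylase that acts on the oxysterol made in brain, had log2 signals of 8.52, 8.53 and 9.36 in CKO CDDO-Im livers, 9.59, 9.17 and 10.21 in CKO vehicle livers, 8.78, 7.83 and 8.54 in WT CDDO-Im livers and 7.87, 7.66 and 7.88 in WT vehicle livers. The CKO vehicle livers were all above the WT vehicle livers, and above all WT CDDO-Im livers. Means were 9.65 ± 0.52 in CKO vehicle and 7.81 ± 0.12 in WT vehicle livers (SD, n = 3 each). The difference was 1.85 ± 0.32 (SE) on the log2 scale, or 3.60-fold (adjusted p = 0.00873). It was 1.88 without CKO vehicle replicate 3 (adjusted p = 0.0327), 2.09 without CKO vehicle replicate 4 (adjusted p = 0.00915) and 1.88 without WT vehicle replicate 1 (adjusted p = 0.0280), so it stayed called without each of the livers that stood apart. Without a filter on low signal the adjusted p was 0.0502, just past the threshold.

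The other groups lay between these 2 for Cyp39a1. In order of group means they were CKO vehicle at 9.65, CKO CDDO-Im at 8.80 ± 0.48, WT CDDO-Im at 8.38 ± 0.50 and WT vehicle at 7.81. No neighbouring pair in that order differed past the threshold. CKO CDDO-Im minus CKO vehicle was -0.85 ± 0.32 (SE, adjusted p = 0.494) and WT CDDO-Im minus WT vehicle was 0.58 ± 0.32 (SE, adjusted p = 0.354). The interaction, that is the treatment's effect in CKO minus its effect in WT livers, was -1.43 ± 0.45 (SE) with an unadjusted p of 0.0098 and an adjusted p of 0.312. In mouse liver Cyp39a1 is known as a female-predominant gene.

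Cyp27a1, the mitochondrial sterol hydroxylase that opens the alternative pathway, varied little. Its log2 signals ran from 13.67 to 14.13 over the 12 livers, and the group means were 13.95 in CKO CDDO-Im, 13.96 in CKO vehicle, 14.02 in WT CDDO-Im and 13.84 in WT vehicle livers. The 95% interval of CKO vehicle minus WT vehicle ran from -0.13 to 0.36, and no comparison was called.

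Cyp7b1, the oxysterol hydroxylase of the alternative pathway and a male-predominant gene of mouse liver, had log2 signals of 13.69, 14.19 and 13.78 in CKO CDDO-Im livers, 14.68, 13.66 and 14.28 in CKO vehicle livers, 13.48, 13.72 and 14.39 in WT CDDO-Im livers and 13.80, 13.63 and 13.72 in WT vehicle livers. The groups overlapped, and CKO vehicle minus WT vehicle was 0.49 ± 0.28 (SE, adjusted p = 0.331). Leaving out CKO vehicle replicate 3 gave 0.26 (adjusted p = 0.687), while leaving out CKO vehicle replicate 4 gave 0.77 (adjusted p = 0.124). Of 13 other male-biased genes tested in CKO vehicle against WT vehicle livers 6 fell, 0 rose and 7 did not pass the test, where 6.51% of all genes were called. Their median log2 difference was -1.30, beside -0.01 over all genes tested. Without CKO vehicle replicate 4 the count was again 6 and the median -0.86. Without WT vehicle replicate 1 the count was 4 and the median -1.27. Over all 12 fits without 1 liver the count that fell lay between 4 and 6. Hsd3b5, a male-specific steroid dehydrogenase, fell by 4.71 on the log2 scale (adjusted p = 0.0121). CKO vehicle replicate 4, which had the lowest median of the male-biased genes of all 12 livers (-0.98 from the mean over livers, against -0.21 and -0.18 in the other CKO vehicle livers), also had the lowest Cyp7b1 of its group. Cyp39a1, the female-predominant gene, was likewise lowest of its group in that liver, at 9.17 against 9.59 and 10.21. Of 3 female-biased genes tested, Cyp2b9 lay under the filter in all WT livers and was tested only through its high CKO livers. Its log2 signal was 11.83 in CKO vehicle replicate 4, against 2.49 and 4.66 in the other CKO vehicle livers. For Acot3 it was 9.06 there, against 5.48 and 6.34, and for Fmo2 8.34, against 6.32 and 7.47. In Fmo2 all CKO CDDO-Im livers were higher, from 8.37 to 8.89. The part of the sex-biased genes in the result for Cyp7b1 or Cyp39a1 was not tested.

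**Figure D2:**
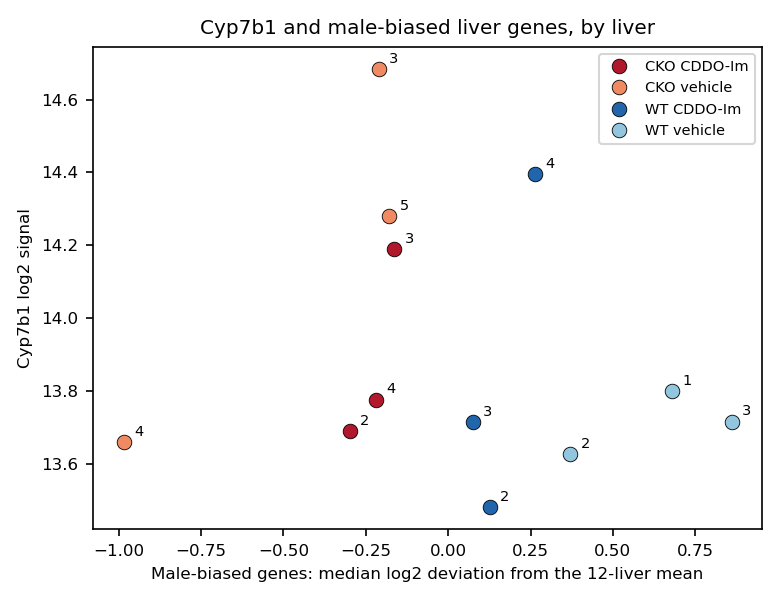
Log2 signal of Cyp7b1 (vertical axis) against the median log2 deviation of 13 male-biased genes from their mean over 12 livers (horizontal axis). Points are livers, coloured by group and marked with their replicate number. The WT vehicle livers lie to the right, from 0.37 to 0.86, and CKO vehicle replicate 4 lies farthest left at -0.98, while Cyp7b1 is highest in CKO vehicle replicate 3.

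Of the genes for the peroxisomal shortening of the side chain, Acox2 rose and Amacr fell in CKO vehicle against WT vehicle livers. Acox2, the oxidase that acts on the CoA esters of bile acid intermediates and of branched fatty acids, had log2 signals of 13.20, 13.69 and 13.54 in CKO CDDO-Im livers, 13.41, 13.69 and 13.48 in CKO vehicle livers, 13.21, 13.17 and 13.41 in WT CDDO-Im livers and 12.92, 12.74 and 12.96 in WT vehicle livers. WT vehicle livers were lower than all livers of the other 3 groups. Acox2 rose by 0.65 ± 0.13 (SE) on the log2 scale in CKO vehicle against WT vehicle livers, or 1.57-fold (adjusted p = 0.0175). This call depended on single livers. Without CKO vehicle replicate 4 the difference was 0.57 with an adjusted p of 0.0529, and without WT vehicle replicate 2 it was 0.59 with an adjusted p of 0.0602. Without a filter on low signal its adjusted p was 0.0652. WT CDDO-Im minus WT vehicle was 0.39 ± 0.13 (SE) with no overlap of the groups, and was not called (adjusted p = 0.139).

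Amacr, the racemase that turns these CoA esters into the form that the oxidase accepts, had log2 signals of 11.20, 11.37 and 11.17 in CKO CDDO-Im livers, 11.27, 11.31 and 11.12 in CKO vehicle livers, 11.39, 11.45 and 11.63 in WT CDDO-Im livers and 11.85, 11.85 and 11.79 in WT vehicle livers. All 6 CKO livers were below all 6 WT livers, and the WT CDDO-Im livers were below the WT vehicle livers. In CKO vehicle against WT vehicle livers Amacr fell by 0.60 ± 0.09 (SE) on the log2 scale, which is 1.51-fold lower (adjusted p = 0.00362). The difference was -0.61 without CKO vehicle replicate 3 (adjusted p = 0.0158), -0.64 without CKO vehicle replicate 4 (adjusted p = 0.00798) and -0.59 without WT vehicle replicate 1 (adjusted p = 0.0155). WT CDDO-Im minus WT vehicle was -0.34 ± 0.09 (SE) with an adjusted p of 0.0599, just short of the threshold. Of the alternatives run, it passed only where the mean of a gene's probe sets was tested (adjusted p = 0.0461). Amacr has a single probe set, so its own values were the same in that setting, while those of other genes changed.

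The conjugation genes were not called in any comparison. Slc27a5, the bile acyl-CoA synthetase that activates the acid, had log2 signals from 14.23 to 14.82 over the 12 livers, with group means of 14.49 in CKO CDDO-Im, 14.45 in CKO vehicle, 14.66 in WT CDDO-Im and 14.56 in WT vehicle livers. Baat, the transferase that joins the activated acid to taurine or glycine, had log2 signals from 11.69 to 11.94, with group means of 11.74 in CKO CDDO-Im, 11.77 in CKO vehicle, 11.87 in WT CDDO-Im and 11.82 in WT vehicle livers. The interval of CKO vehicle minus WT vehicle ran from -0.20 to 0.10 for Baat and from -0.45 to 0.23 for Slc27a5. The second Baat probe set followed the first only loosely over the 12 livers (Pearson r = 0.38) and was likewise not called in either comparison with WT vehicle livers.

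Nr0b2, which encodes the small heterodimer partner, had the widest spread within groups, with an SE of 0.62 for each difference between groups. Its log2 signals were 7.94, 7.32 and 9.88 in CKO CDDO-Im livers, 8.03, 7.52 and 9.32 in CKO vehicle livers, 7.35, 7.91 and 7.91 in WT CDDO-Im livers and 9.17, 8.44 and 9.27 in WT vehicle livers. The 3 WT CDDO-Im livers were below the 3 WT vehicle livers, and each CKO group had 1 liver far above the others. WT CDDO-Im minus WT vehicle was -1.24 ± 0.62 (SE), with a 95% interval from -2.61 to 0.14 and an adjusted p of 0.307. CKO vehicle minus WT vehicle was -0.67, with an interval from -2.04 to 0.70. Leaving out CKO vehicle replicate 4 gave -0.29 (adjusted p = 0.855), while leaving out CKO vehicle replicate 5 gave -1.18 (adjusted p = 0.341). Nr0b2 and the genes it is known to repress were also compared over the 12 livers, in 3 relations chosen after their values were seen. Nr0b2 and Cyp7a1 had a Pearson r of -0.43 (permutation p = 0.166, adjusted 0.352) and a Spearman rho of -0.36 (permutation p = 0.252, adjusted 0.407), and r was -0.29 without the 2 livers farthest in Nr0b2. For Nr0b2 and Cyp8b1 r was -0.21 (permutation p = 0.504, adjusted 0.504) and rho -0.21 (permutation p = 0.519, adjusted 0.519), with r at -0.34 without the same 2 livers. Cyp8b1 and Cyp7a1 had an r of 0.37 (permutation p = 0.235, adjusted 0.352) and a rho of 0.34 (permutation p = 0.271, adjusted 0.407), and r was 0.68 without the 2 livers farthest in Cyp8b1. As deviations from group means the 3 values of r were -0.39, 0.09 and 0.36. None of the 3 relations passed the threshold.

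**Figure D3:**
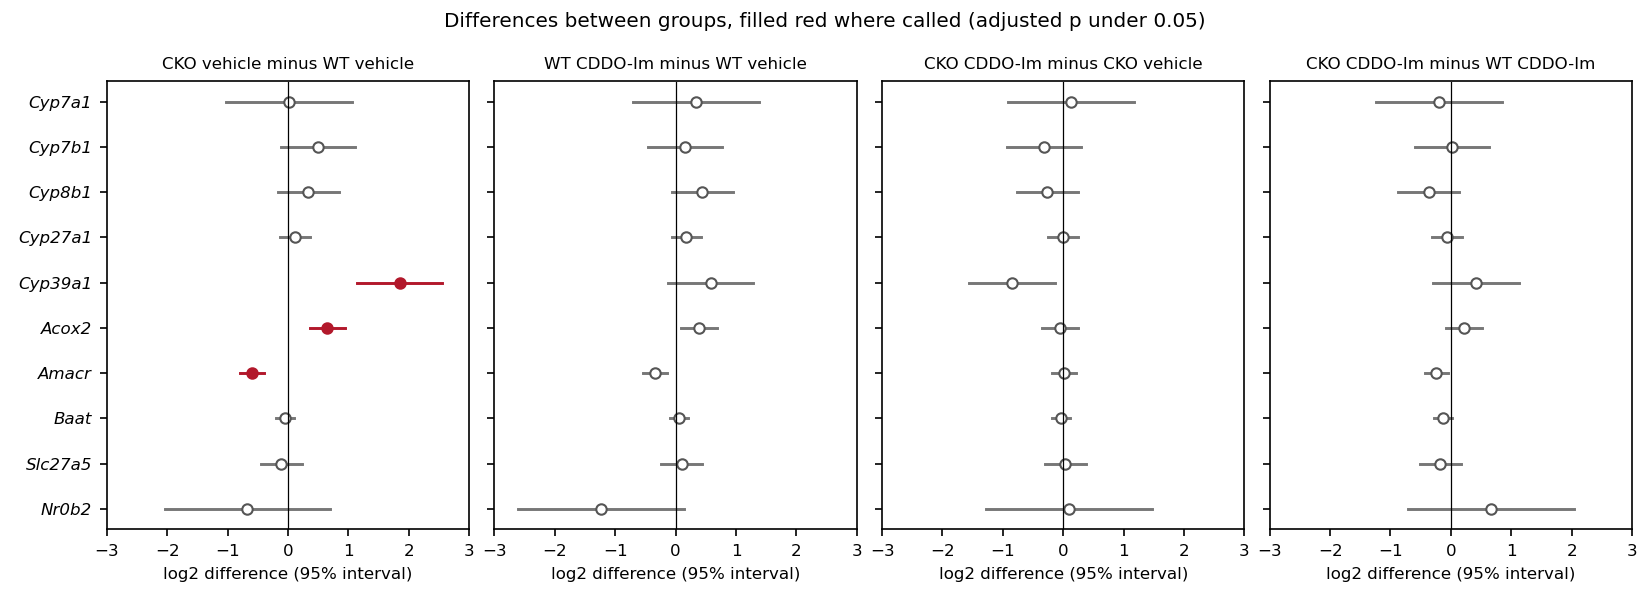
Log2 differences between groups (horizontal axis, points, with 95% intervals as lines) of the 10 genes (rows) in 4 comparisons (panels). Filled red points passed an adjusted p under 0.05: Cyp39a1 and Acox2 to the right of 0 and Amacr to the left of it, all in CKO vehicle minus WT vehicle.

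No member was called in the other 4 comparisons between groups or in the interaction. For WT CDDO-Im minus WT vehicle, 2 members had an unadjusted p under 0.05, Acox2 and Amacr, and 3.65% of all genes tested were called. These 2 differences had the same sign as those of CKO vehicle minus WT vehicle, with which they share the WT vehicle livers. For CKO CDDO-Im minus CKO vehicle, 1 member had an unadjusted p under 0.05, Cyp39a1, and 0% of all genes were called, with 790 genes at an unadjusted p under 0.05. For CKO CDDO-Im minus WT CDDO-Im, Amacr alone had an unadjusted p under 0.05 (a log2 difference of -0.24, adjusted p = 0.204), and 1.54% of all genes were called. For CKO vehicle minus WT CDDO-Im, which sets the genetic beside the pharmacologic activation, Cyp39a1 was 1.27 ± 0.32 (SE) higher on the log2 scale with an adjusted p of 0.0534, Amacr was 0.26 lower in CKO vehicle livers (a difference of -0.26, adjusted p = 0.118), and 4.29% of all genes were called. For the interaction 0.276% of all genes were called. Members at an unadjusted p under 0.05 there were Cyp39a1, Amacr at 0.36 ± 0.12 (SE, adjusted p = 0.358) and Acox2 at -0.44 ± 0.19 (SE, adjusted p = 0.463).

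Of 20 other enzymes of bile acid synthesis and metabolism 18 were tested. In CKO vehicle against WT vehicle livers, where 6.51% of all genes were called, 1 of the 18 was called. This was Sult2a8, a bile acid sulfotransferase of mouse liver, with log2 signals of 13.88, 14.06 and 13.73 in CKO CDDO-Im livers, 12.95, 13.61 and 13.52 in CKO vehicle livers, 14.38, 14.21 and 14.26 in WT CDDO-Im livers and 14.46, 14.57 and 14.38 in WT vehicle livers. The CKO livers were all below the WT livers, and Sult2a8 fell by 1.11 ± 0.16 (SE) on the log2 scale in CKO vehicle against WT vehicle livers, or 2.16-fold (adjusted p = 0.00305). It was also lower in CKO vehicle than in WT CDDO-Im livers (a log2 difference of -0.92, adjusted p = 0.0142). Without CKO vehicle replicate 4, the number of the 18 that fell against WT vehicle livers was 3, where 463 of all 8338 genes were called. None of the 18 was called for WT CDDO-Im minus WT vehicle, where 3.65% of all genes were. The largest difference there was that of Cyp51, the sterol demethylase of cholesterol synthesis, at -0.75 ± 0.43 (SE, adjusted p = 0.376). The median log2 difference of the 18 was -0.16 for CKO vehicle minus WT vehicle and -0.06 for WT CDDO-Im minus WT vehicle, beside -0.01 and -0.02 over all genes.

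Of 19 genes listed for the transport of bile acids and related lipids 15 were tested. One of them, Osbpl3, was set aside after its values were seen, because all its WT livers lay under the filter on low signal and it was tested only through its high CKO livers. Of the other 14, 3 rose and 2 fell in CKO vehicle against WT vehicle livers, where 6.51% of all genes were called. Their median log2 difference was 0.28, beside -0.01 over all genes, and it was 0.66 with Osbpl3. Without CKO vehicle replicate 3 the count was 3 rising and 1 falling, without CKO vehicle replicate 4 it was 3 and 2, and without WT vehicle replicate 1 it was 4 and 1. Abcc4, an exporter of bile acids at the blood side of the hepatocyte, had log2 signals of 10.82, 10.89 and 11.05 in CKO CDDO-Im livers, 10.99, 11.09 and 11.07 in CKO vehicle livers, 6.28, 7.03 and 7.57 in WT CDDO-Im livers and 5.12, 5.72 and 5.03 in WT vehicle livers. The CKO livers stood far above both WT groups, and WT CDDO-Im livers above WT vehicle livers. Abcc4 was 54.3-fold higher in CKO vehicle than in WT vehicle livers (adjusted p = 3.92e-06). It rose by 1.67 ± 0.28 (SE) on the log2 scale in WT CDDO-Im against WT vehicle livers (adjusted p = 0.0110), a call that was lost in 3 of 9 other settings and in 0 of 12 fits without 1 liver. Abcc3, another exporter at the blood side, rose by 0.75 ± 0.13 (SE) in CKO vehicle and by 0.55 ± 0.13 (SE) in WT CDDO-Im livers, each against WT vehicle livers (adjusted p = 0.00821 in CKO vehicle and 0.0418 in WT CDDO-Im livers). In WT CDDO-Im livers its call was lost in 8 of 12 fits without 1 liver.

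The 3 other called genes of the list were called in CKO vehicle against WT vehicle livers and not for WT CDDO-Im minus WT vehicle. The gene set aside, Osbpl3, an oxysterol-binding protein relative that is no bile acid transporter, had log2 signals of 9.10, 9.49 and 9.00 in CKO CDDO-Im livers, 8.63, 9.28 and 9.57 in CKO vehicle livers, 3.14, 4.89 and 3.72 in WT CDDO-Im livers and 2.31, 3.27 and 2.23 in WT vehicle livers. All WT signals were under the filter at log2 5, so neither a fold nor a test is given, and with the mean of its probe sets the log2 difference of CKO vehicle minus WT vehicle was 3.29 in place of 6.56. Abcc2, the exporter of conjugates into bile, rose by 0.69 (adjusted p = 0.0100) and is named after its value was seen. Slco1a1, an uptake transporter that is also 1 of the male-biased genes that fell, fell by 2.16 ± 0.32 (SE) on the log2 scale (adjusted p = 0.00374), and Fabp1, the liver fatty acid binding protein, which also binds bile acids, fell by 0.79 ± 0.16 (SE, adjusted p = 0.0151). The call of Fabp1 was lost without CKO vehicle replicate 3 (adjusted p = 0.0662) and without WT vehicle replicate 1 (adjusted p = 0.0522). The main uptake carrier Slc10a1 and the bile salt export pump Abcb11 were looked at after their values were seen. CKO vehicle minus WT vehicle was -0.23 for Slc10a1 (adjusted p = 0.144) and -0.49 for Abcb11 (adjusted p = 0.0772), neither of which was called. In CKO CDDO-Im against WT CDDO-Im livers 1 of the 14 genes rose, Abcc4, by 3.96 on the log2 scale, where 1.54% of all genes were called. In CKO vehicle against WT CDDO-Im livers Abcc4 rose and Slco1a1 and Fabp1 fell, where 4.29% of all genes were called. There the call of Slco1a1 was lost in 3 of 9 other settings, and that of Fabp1 (adjusted p = 0.0451) in 3 of 9 settings and 11 of 12 fits without 1 liver. None was called for CKO CDDO-Im minus CKO vehicle or for the interaction.

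**Figure D4:**
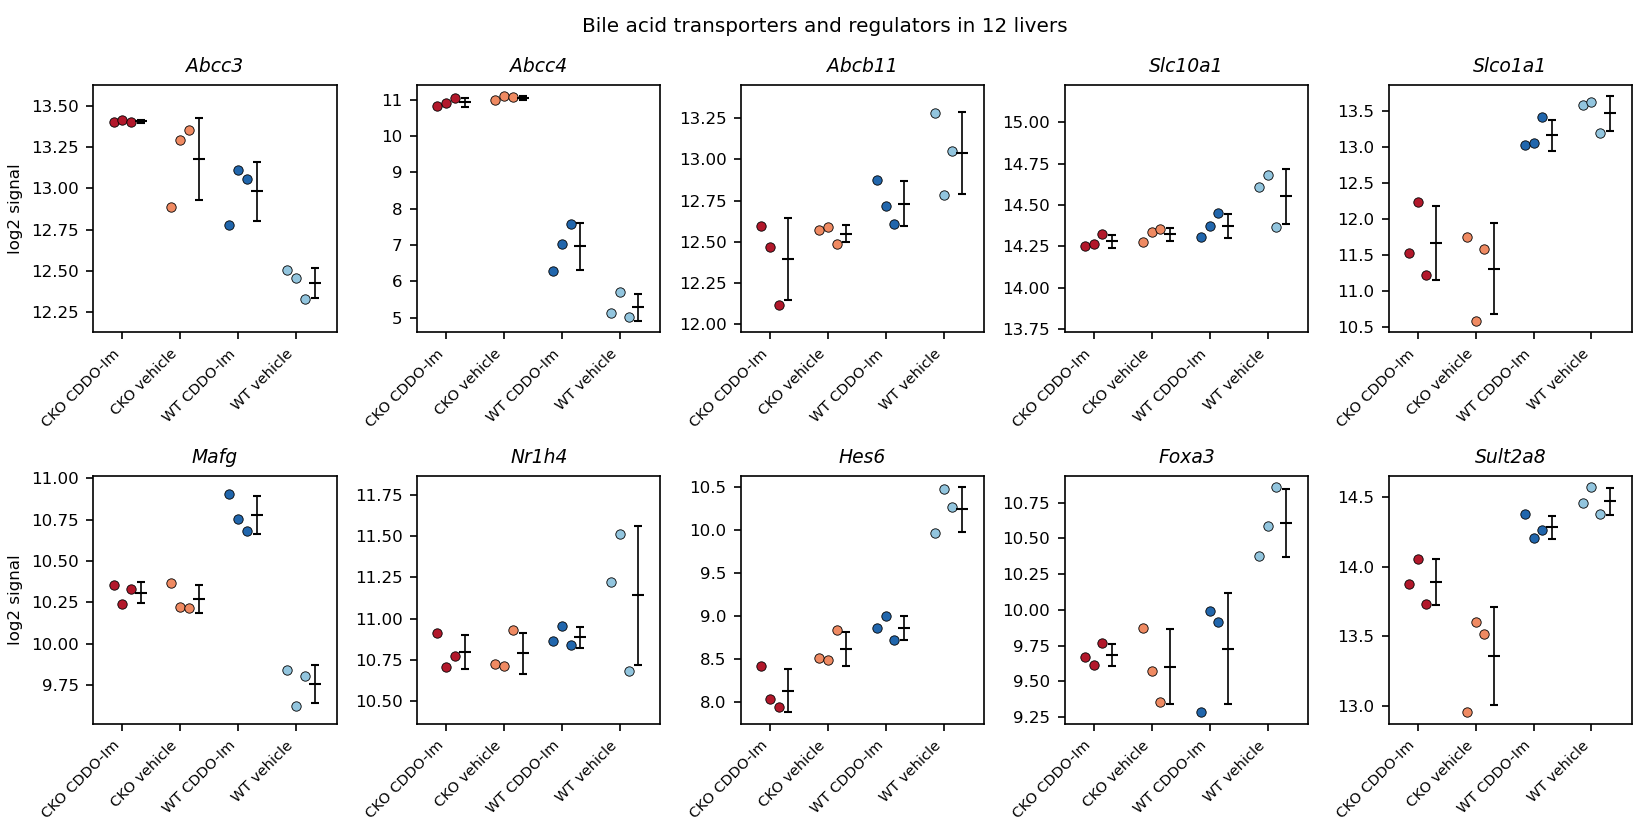
Log2 signal (vertical axis, a scale of its own in each panel) in each of 12 livers, by group (horizontal axis), for 5 transporters (upper row) and for 4 regulators and Sult2a8 (lower row), with the group mean and SD (n = 3) beside the points. Abcc4 lies near 11 in CKO livers of both treatments and near 5 in WT vehicle livers, and Mafg is highest in WT CDDO-Im livers.

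Regulators of bile acid synthesis were called in both directions. Of 38 listed genes 26 were tested. In CKO vehicle against WT vehicle livers 2 rose and 3 fell, where 6.51% of all genes were called, and in WT CDDO-Im against WT vehicle livers 2 rose and 4 fell, where 3.65% were. The median log2 differences of the 26 were -0.11 and -0.24, beside -0.01 and -0.02 over all genes. Without 1 liver the first count ranged over 1 to 2 rising and 1 to 4 falling genes, and the second over 1 to 2 rising and 1 to 4 falling genes. Mafg, a small Maf protein that pairs with Nrf2 and is known in mouse liver as a repressor of bile acid synthesis genes such as Cyp8b1, had log2 signals of 10.35, 10.24 and 10.33 in CKO CDDO-Im livers, 10.37, 10.22 and 10.22 in CKO vehicle livers, 10.91, 10.75 and 10.68 in WT CDDO-Im livers and 9.84, 9.62 and 9.80 in WT vehicle livers. The WT CDDO-Im livers were highest, the WT vehicle livers lowest, and the CKO livers of both treatments lay between without overlap. Mafg rose by 0.51 ± 0.09 (SE) on the log2 scale in CKO vehicle (adjusted p = 0.00873) and by 1.02 ± 0.09 (SE) in WT CDDO-Im livers (adjusted p = 0.000477), each against WT vehicle livers. Cyp8b1, as given above, was called in neither comparison.

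Hes6, a transcriptional regulator of the Hes family, fell by 1.62 ± 0.17 (SE) on the log2 scale in CKO vehicle (adjusted p = 0.000560) and by 1.38 ± 0.17 (SE) in WT CDDO-Im livers (adjusted p = 0.00210), each against WT vehicle livers. Foxa3, a hepatocyte forkhead factor, fell in the same 2 comparisons, by 1.01 (adjusted p = 0.0151) and by 0.88 (adjusted p = 0.0397). Ppara, the fatty acid receptor, fell by 1.02 (adjusted p = 0.0434) and Nr1i3, the constitutive androstane receptor, rose by 0.50 (adjusted p = 0.0333) in CKO vehicle against WT vehicle livers. In WT CDDO-Im against WT vehicle livers the transcription factor Cebpb rose by 1.04 (adjusted p = 0.0370) and Bhlhe40, a clock-linked repressor, fell by 1.38 (adjusted p = 0.0227). The fourth gene to fall there, Nr2f2, an orphan nuclear receptor named after its value was seen, fell by 0.67 (adjusted p = 0.0170). Nr1h4, which encodes FXR, was looked at after its values were seen and was not called (-0.35 for CKO vehicle minus WT vehicle, adjusted p = 0.262). Between CKO vehicle and WT CDDO-Im livers Mafg fell by 0.51 (adjusted p = 0.0146) and Rxra, the partner of FXR, fell by 0.34 (adjusted p = 0.0183). With the mean of its probe sets the Rxra difference was -0.11 (adjusted p = 0.369), and its call was lost in 3 of 9 settings and 3 of 12 fits without 1 liver. Mafg also fell, by 0.47, in CKO CDDO-Im against WT CDDO-Im livers (adjusted p = 0.0320), a call lost in 5 of 9 settings and 5 of 12 fits without 1 liver. No regulator was called for CKO CDDO-Im minus CKO vehicle. Of the regulators called against WT vehicle livers, Hes6 and Mafg stayed called in all 12 fits without 1 liver. The calls in CKO vehicle livers were lost in 9 of these 12 fits for Ppara, 6 for Nr1i3 and 1 for Foxa3. Those in WT CDDO-Im livers were lost in 9 for Foxa3, 8 for Cebpb and 4 for Bhlhe40. In the 9 other settings, calls in CKO vehicle livers were lost in 4 for Ppara and 0 for Hes6. For Nr1i3, Foxa3 and Mafg they were lost in 3 each. Those in WT CDDO-Im livers were lost in 3 each for Foxa3 and Bhlhe40, 2 for Cebpb and 0 for Hes6 and Mafg.

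Genes whose pattern over the 12 livers was most like that of a cytochrome P450 of the main steps were found by Pearson correlation. The search covered the genes tested, with predicted genes and clones left out. It is a description that shares the arrays and their normalization. For Cyp7a1 they were Actr1a at 0.85, Fem1a at 0.85 and Tbccd1 at 0.84. For Cyp7b1 they were Ndufaf2 at 0.89, Ifi27l2b at 0.88 and Pros1 at 0.87. Cyp8b1 had the highest values, with Agpat3, an acyltransferase of phospholipid synthesis, at 0.94, Hsd17b10, a mitochondrial dehydrogenase, at 0.91 and Ogdh, a subunit of the oxoglutarate dehydrogenase complex, at 0.90.

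Marker genes of liver cell types and zones mostly did not pass the test in CKO vehicle against WT vehicle livers. In that comparison 6.51% of all genes tested were called. Of 10 hepatocyte markers tested 1 rose, Tdo2, of 10 macrophage and Kupffer cell markers 1 rose, Marco, of 11 endothelial markers 1 rose, Lyve1, and of 10 stellate cell and fibroblast markers 1 fell, Reln. The single cholangiocyte and the single lymphocyte marker that were tested were not called, and no neutrophil marker passed the filter on low signal. Of 10 pericentral genes 1 rose and 1 fell, of 10 periportal genes 0 were called, of 20 acute phase genes 1 rose, Orm3, and of 3 female-biased genes 0 were called. Their part in the results for the bile acid genes was not tested.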

How the data were processed

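The deposited log2 values were made by the authors with GCRMA 2.12.1 under R 2.7.0, according to the submitters' processing notes. GCRMA uses probe sequence to remove background, scales all arrays together and gives 1 value per probe set. A gene without signal therefore sits at a shared floor, and a difference measured against it reflects the background model. Further settings: not given in the sources used here. Array medians lay between 2.32 and 2.34. Precision is limited by the number of arrays.

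Groups were taken from the labels. Of 45101 probe sets 34945 name 1 gene in the platform's annotation, 932 name several, and 64 are controls. The brightest probe set stood for each of 18193 genes, and 8338 genes with at least 3 arrays over log2 5 were tested with limma 3.58.1 in R 4.3.3, as 4 group means over all 12 arrays (8 residual degrees of freedom), two-sided, with Benjamini-Hochberg adjustment over the 8338 genes and a call at an adjusted p under 0.05. The script was tested on simulated data. Linear folds are given where both means were at least 5. Nothing in the labels says whether mice were littermates. The members and the gene lists were chosen with earlier results of these data known. The 10 members were always named. From each list of other bile acid enzymes, transporters and regulators up to 3 called genes in each direction were named or, where none was called, the gene with the largest change, with exceptions marked. Alternatives covered normalization, the filter, probe set choice, the variance model, the samples fitted, the replicate block and leaving out each liver. Permutation p-values used 100000 permutations.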

Additional observations from a re-analysis of the deposited data

Results flagged for a closer look

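Mafg responded differently to CDDO-Im in the 2 genotypes, by a test of the difference itself. The interaction, its treatment effect in CKO livers minus that in WT livers, was -0.98 ± 0.12 (SE) on the log2 scale, with an adjusted p of 0.0153 from limma. CKO CDDO-Im livers had log2 signals of 10.35, 10.24 and 10.33 and CKO vehicle livers 10.37, 10.22 and 10.22, which overlap. WT CDDO-Im livers had 10.91, 10.75 and 10.68 and WT vehicle livers 9.84, 9.62 and 9.80, which do not. The call was lost in 1 of 8 other settings and in 3 of 12 fits without 1 liver, namely CKO vehicle replicate 3 (adjusted p = 0.0561), CKO CDDO-Im replicate 2 (adjusted p = 0.0532) and CKO CDDO-Im replicate 3 (adjusted p = 0.0643). The difference lay between -1.24 and -0.92 in all of them. A negative interaction was not particular to Mafg, since of 23 genes called for the interaction 21 fell. Of 13 listed targets of Nrf2 tested, 6 fell and 0 rose, with a median log2 value of -1.54. The cause was not tested.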

How the results depend on the processing

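Of the 3 called members, Cyp39a1, Acox2 and Amacr in CKO vehicle minus WT vehicle, 1 was called without a filter on low signal (Amacr, which fell), where more genes were tested. With the replicate number as a block (replicate block) 0 were called, and the adjusted p was 0.190 for Cyp39a1, 0.202 for Acox2 and 0.125 for Amacr. Deviations of same-numbered livers from their group means had a Pearson r of -0.17 to 0.15 (12 pairs, with 3 over 0.1). With so few livers per group these values cannot show whether the numbers mark a shared litter, day or batch. The labels do not say what the numbers mark. For CKO vehicle minus WT CDDO-Im, where no member was called, 1 was called (Cyp39a1) with the stricter filter at log2 7 and 1 with a trended and robust variance, and 0 to 1 when a liver was left out, with 1 only without CKO CDDO-Im replicate 4. For WT CDDO-Im minus WT vehicle 1 member, Amacr, was called where the mean of a gene's probe sets was used. Amacr has a single probe set, so its own values did not change there. The cause of these shifts was not tested. Over the 32 calls of members and of the listed genes named by rule, 23 were lost in at least 1 other setting and 13 without at least 1 liver. By setting, 22 were lost with the replicate block, 17 of the 31 refitted with only the groups compared, 15 without a filter, 3 with the mean of probe sets, and 1 each with quantile normalization and median centring. No called value changed sign under any alternative run.

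Over all genes, the count for CKO vehicle minus WT vehicle was 543, against 232 without a filter, 828 with every probe set tested, 223 with only the groups compared, 55 with the replicate block, 275 without CKO vehicle replicate 3 and 302 without WT vehicle replicate 1. For WT CDDO-Im minus WT vehicle it was 304, against 124, 526, 85 and 114 in the same 4 settings, and 106 without WT CDDO-Im replicate 4, 163 without WT CDDO-Im replicate 3, 165 without WT vehicle replicate 2 and 187 without WT vehicle replicate 3. For CKO CDDO-Im minus WT CDDO-Im it was 128, against 29, 195, 56 and 42, and 32 to 139 without 1 liver. For CKO vehicle minus WT CDDO-Im it was 358, against 119 without a filter, 112 with only the groups compared, 150 with the block and 108 to 379 without 1 liver. For the interaction it was 23, against 7 without a filter, 42 with every probe set, 3 with the block and 2 to 31 without 1 liver. For CKO CDDO-Im minus CKO vehicle it was 0, with 1 without a filter, 2 with the block and 1 without CKO vehicle replicate 5.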
